A study of Homo sapiens with 4 samples.

Results

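The change of the polysomal/total RNA ratio with ATO was read in the established cell line LN229, from a human glioblastoma, for all probe sets that carry 1 gene symbol. The members were 16127 of 65528 probe sets on a whole-transcript array, with 15257 different symbols, and they included 7743 protein-coding genes. The probe sets analysed lay on chromosomes 1 to 8 and part of chromosome 9, so genes on other chromosomes were not read. The 4 groups were polysomal RNA of cells given 5 µM ATO for 6 h, total RNA of cells given the same ATO treatment, polysomal RNA of untreated cells and total RNA of untreated cells. All cells were grown in DMEM with serum and gentamycin. Each group was 1 sample, so no value below has a replicate error or a test, and every difference is a description of these 4 samples. Per the series' design text, technical triplicates were pooled, so that precision is limited by the small number of arrays.

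ATO is not spelled out in the labels and usually stands for arsenic trioxide. Arsenic trioxide binds protein thiols and causes oxidative stress. An mRNA that is being translated carries several ribosomes and sediments with polysomes in a sucrose gradient, while an mRNA held out of translation stays in lighter fractions. The ratio of polysomal to total RNA is therefore used as a measure of how much of a transcript is on ribosomes, apart from how abundant the transcript is. Stress can lower initiation in general and still leave certain mRNAs on polysomes. The comparison asked which transcripts stood differently on polysomes after ATO.

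The ratio was the log2 polysomal value minus the log2 total value in one state, and the change was the ratio in ATO cells minus the ratio in untreated cells. A positive change is a higher ratio with ATO. A difference of 0.58 on the log2 scale is 1.5-fold, the threshold that the series itself used. The level of a probe set was its mean over the 4 samples, and the text reads levels at or above the 75th percentile of named probe sets (8.75) unless another level is given. That left 4033 named probe sets, 3393 coding genes among them, each read from its strongest probe set. Of the 4033, 81 were past 1.5-fold higher (2.01%) and 79 lower (1.96%), 3.97% in either direction.

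The samples were close in scale, with medians over all probe sets between 4.22 and 4.26. Over the 3393 coding genes the median was 11.61 in ATO polysomal and 11.45 in ATO total RNA, against 11.65 in untreated polysomal and 11.46 in untreated total RNA. An array set to a common scale cannot show whether the polysomes as a whole held more or less RNA. The sample titled ATO total RNA has a source name that reads polysomal, and it was grouped by its title. U1 small nuclear RNA, which is not translated, had a median log2 polysomal minus total value of -2.66 in ATO cells and -2.51 in untreated cells, over 19 distinct probe sets. Of 7 glioma markers chosen 4 were measured. The 3 past the level filter were SOX2, NES and ID3, with EGFR just under it at 8.65 to 8.71. None of 5 blood, 4 epithelial and 2 oligodendrocyte markers passed, nor did 2 of 3 neuron markers; GAD1, at 9.02 to 9.44, was the exception. In wider lists of these markers 1 of 7 blood and immune genes passed, the MHC class II invariant chain gene CD74 at 17.51 to 17.99, and 2 of 5 neuron genes, GAD1 and MAP2, with MAP2 at 13.01 to 13.30.

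Most coding genes had nearly the same ratio in both states. The median change over the 3393 genes was 0.00, with 1688 genes above 0 and 1647 below. The central 90% of genes, from the 5th to the 95th percentile, lay between -0.43 and 0.42. The median ratio was 0.19 in ATO cells and 0.20 in untreated cells. Past 1.5-fold stood 46 genes with a higher ratio in ATO cells (1.36%) and 52 with a lower one (1.53%). Only KIF26B, on the lower side, passed 2-fold among coding genes at this level.

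The share past 1.5-fold depended on the level. Among named probe sets at or above the 90th percentile of level (12.1), 2.11% passed in either direction, 23 higher and 11 lower of 1613. From the 75th to the 90th percentile 5.21% passed, from the 50th to the 75th 15.8%, and under the 50th 16.2%. The spread of the change, a scaled median absolute deviation, was 0.22, 0.28, 0.40 and 0.39 in those bands. Weak probe sets thus passed the same threshold more often than strong ones, and the genes below are given by level for that reason. Where 2 probe sets of a coding gene both passed the filter, which was so for 9 genes, their changes lay a median of 0.24 apart, from 0.01 to 0.75. The spread over all coding genes (0.25) is a scaled deviation of single values, so the gap cannot be set against it directly.

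**Figure D1:**
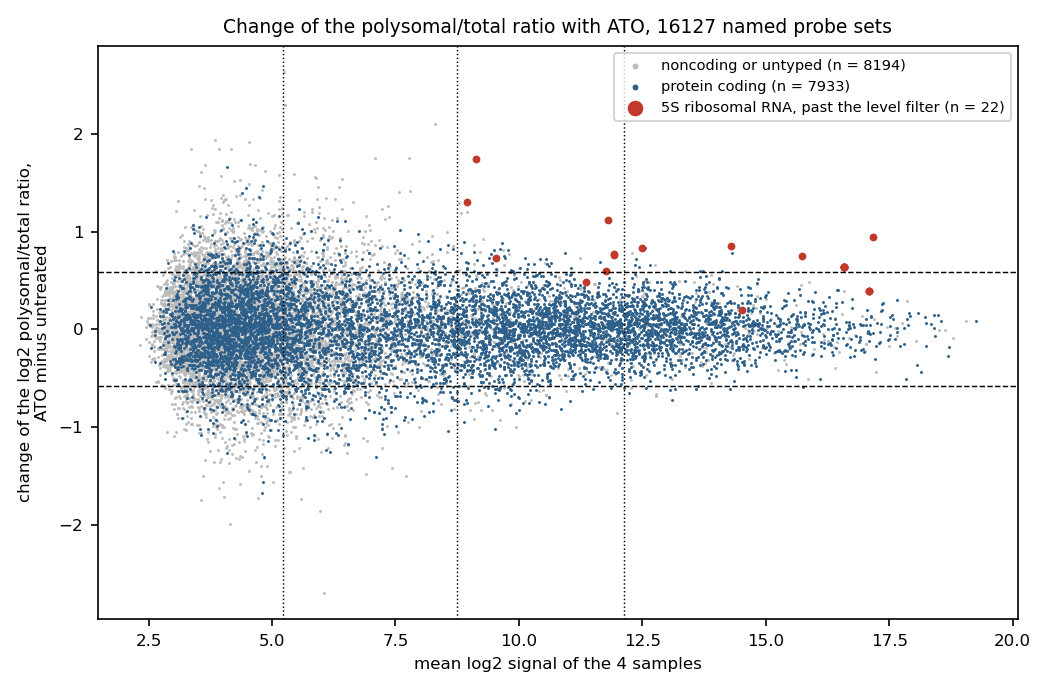
Change of the log2 polysomal/total ratio, ATO minus untreated (vertical axis), against mean log2 signal of the 4 samples (horizontal axis), 1 point per named probe set. Dashed lines mark 1.5-fold and dotted lines the 50th, 75th and 90th percentiles of level; the cloud narrows to the right, and the 22 probe sets of 5S ribosomal RNA past the filter all lie above 0.

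Among the strongest signals, at or above the 90th percentile, 10 of 1389 coding genes had a higher ratio past 1.5-fold in ATO cells (0.72%) and 8 a lower one (0.576%). Of the 8 lower ones 3 were histone H2B genes, while the median change of the list of replication histones at this level was -0.12. At or above the 75th percentile 4 of 39 histones in that list passed lower, beside 1.53% of all coding genes. H2BC12, at -0.59, was within the rounding limit of 0.02 of the threshold. So were UBR4 at -0.60 and PPM1G, MMADHC, COPS9 and DPYSL2 at 0.60. ECI2 (Entrez gene 10455, chromosome 6), an isomerase in the breakdown of unsaturated fatty acids, had log2 signals of 12.97 in ATO polysomal and 12.32 in ATO total RNA, against 12.38 in untreated polysomal and 12.56 in untreated total RNA. Its ratio was 0.65 in ATO cells and -0.18 in untreated cells, a change of 0.83, so that it was polysome-rich in ATO and total-rich in untreated cells. The low molecular weight tyrosine phosphatase gene ACP1 (gene 52, chromosome 2) stood at 14.81 and 13.59 in ATO polysomal and total RNA, against 14.65 and 14.21 in the untreated fractions. ACP1 was polysome-rich in both states, at 1.22 in ATO and 0.44 in untreated cells, and most of its change of 0.78 was a lower total signal with ATO.

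TTK (gene 7272, chromosome 6), a kinase of the spindle checkpoint, had 12.43 in ATO polysomal and 12.24 in ATO total RNA, against 12.13 and 12.66 in untreated polysomal and total RNA, a change of 0.72. GPAT3, an acyltransferase of triglyceride synthesis, and RARS1, the arginyl-tRNA synthetase, each had a change of 0.66. GPAT3 differed with ATO by 0.62 in polysomal and -0.04 in total RNA, so its change came almost wholly from the polysomal fraction. The same step in RARS1 was 0.37 in polysomal and -0.29 in total RNA. EMC3, a subunit of the complex that inserts proteins into the endoplasmic reticulum membrane, followed at 0.64. The phosphatase gene PPM1G, MMADHC of vitamin B12 handling, COPS9 of the COP9 signalosome and DPYSL2, a cytoskeletal protein of growing axons, were all at 0.60. These last 4 were not past 1.5-fold when each sample was centred on its own median.

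On the lower side of the strong signals, H2BC9 (gene 8345, chromosome 6), a histone H2B gene, had 13.18 in ATO polysomal and 12.93 in ATO total RNA, against 13.63 and 12.66 in the untreated fractions. Its ratio was 0.25 in ATO and 0.97 in untreated cells, a change of -0.72. H2BC14 had a ratio of 1.10 in ATO and 1.71 in untreated cells (change -0.61), and H2BC12 of 0.93 and 1.52 (change -0.59). All 3 histone genes stayed polysome-rich after ATO, with a smaller lead. H2B genes are near-identical copies, so their probe sets can share signal and are not independent. CENPF, a kinetochore protein, was at -0.95 in ATO and -0.30 in untreated cells, a change of -0.65. RNF187, a RING ubiquitin ligase, had 13.07 and 12.78 in ATO polysomal and total RNA, against 13.63 and 12.72 in the untreated fractions, a change of -0.62. SRM, the spermidine synthase, and EXT1, a glycosyltransferase of heparan sulfate, had changes of -0.61, and the ubiquitin ligase UBR4 of -0.60. HJURP, the chaperone of the centromeric histone, was just short of the threshold at -0.58, and PRCC reached -0.53.

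**Figure D2:**
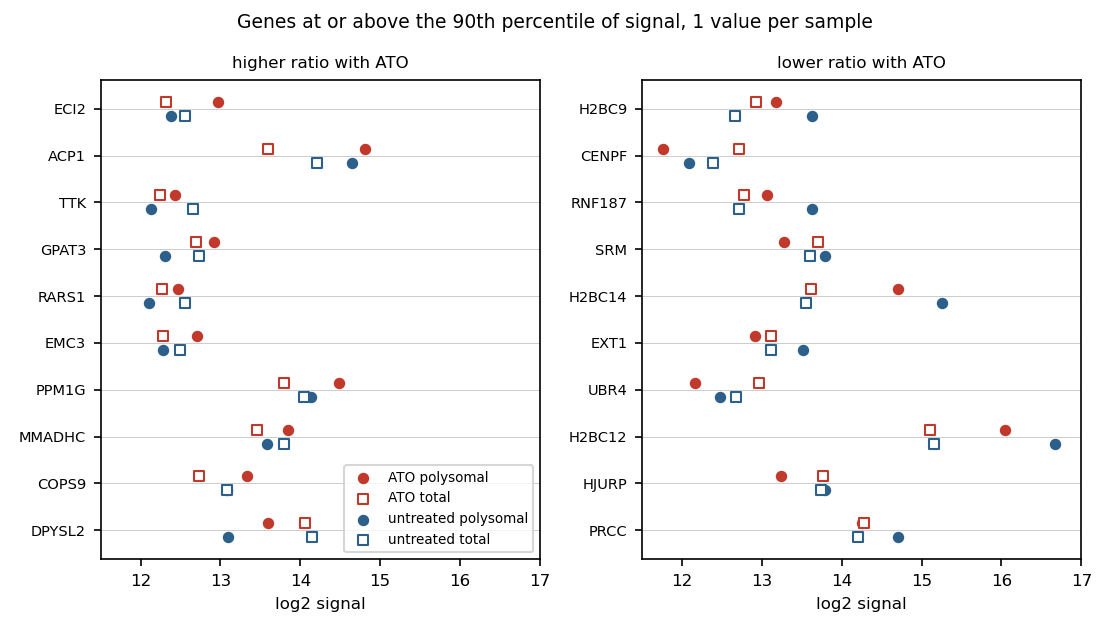
Log2 signal (horizontal axis) of the 10 coding genes per direction with the largest change at or above the 90th percentile of level, 1 point per sample; filled circles are polysomal and open squares total RNA, ATO in red above untreated in blue. ECI2 has its ATO polysomal point at 12.97 to the right of its other 3 points, whereas RNF187 has its untreated polysomal point at 13.63 furthest right; the untreated points of COPS9 lie on top of each other at 13.08.

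The first bases of these transcripts are shown because mRNAs of the translation machinery carry a terminal oligopyrimidine (TOP) tract there, a C followed by a run of pyrimidines, through which their translation is controlled by the mTOR pathway. Each line gives 15 bases before the RefSeq start, the start base and 14 bases after it, 5′ to 3′ on the gene's strand (RefSeq, GRCh38.p14), with the longest pyrimidine run in capitals. The first 4 are ribosomal protein genes, 2 of those with the highest changes and the 2 with the lowest, followed by 2 genes with a higher and 2 with a lower ratio.
RPL22L1, chr3:170870181-170870210, minus strand, change 0.35: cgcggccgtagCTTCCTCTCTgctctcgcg
RPL10A, chr6:35468386-35468415, plus strand, change 0.30: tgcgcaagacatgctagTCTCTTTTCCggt
RPL7L1, chr6:42879601-42879630, plus strand, change -0.09: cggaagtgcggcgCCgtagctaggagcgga
RPS14, chr5:150449725-150449754, minus strand, change -0.32: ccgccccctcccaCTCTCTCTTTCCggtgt
ECI2, chr6:4135561-4135590, minus strand, change 0.83: agCCCCCgcagccctagagccgcccaaggg
ACP1, chr2:264932-264961, plus strand, change 0.78: ccgcggtgtctcggcgCCTCTgcgcgcggg
RNF187, chr1:228487367-228487396, plus strand, change -0.62: gtgcgcgTCCCCggcgttggcgtcttcgtc
H2BC9, chr6:26251599-26251628, plus strand, change -0.72: tgctgttgagCCTTCactttggggtgtatt

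The long run of RPS14 and that of RPL22L1 stood over genes with changes of opposite sign. A start window was matched for 2830 of the 3393 coding genes. The start base was C with 4 further pyrimidines after it, read on the gene's strand only, in 159 of them (5.62%), and in 15 of 21 ribosomal protein genes. Those 159 genes had a median change of 0.00, as had the other 2671. Their median ratio was 0.01 in ATO and 0.02 in untreated cells, against 0.20 and 0.21 for the other genes, so they stood lower on polysomes in both states. Grouped by the length of the pyrimidine run, median changes ranged from -0.04 for runs of 12 or more to 0.02 for runs of 0 to 3.

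Across all coding genes past the level filter, the 15 with the largest higher change went from ACY1 at 0.89 to HNMT at 0.73. ACY1 (gene 95, chromosome 3), an aminoacylase, had 9.19 in ATO polysomal and 8.73 in ATO total RNA, against 8.62 and 9.05 in the untreated fractions. ABHD14A-ACY1, a readthrough gene that overlaps it, had a change of 0.77, and the array may read the same RNA for both. TMEM175 (gene 84286, chromosome 4), a potassium and proton channel of lysosomes, had 9.95 and 9.19 in ATO polysomal and total RNA, against 9.68 and 9.80 untreated, a change of 0.88. NOCT, a phosphatase of NADP(H) with circadian expression, followed at 0.82, and PGM2, a sugar phosphate mutase, at 0.81. PARM1, a mucin-like membrane protein, was also at 0.81, and HLA-B, an antigen-presenting MHC class I chain, at 0.79. HLA-B is highly variable between people and shares sequence with other HLA genes, which makes its probe set less certain.

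Beside ECI2 and ACP1, 6 further genes completed the higher side. INTS7, a subunit of the Integrator complex that ends small nuclear RNA transcripts, had a change of 0.78, and ZNF141, a zinc finger gene, the same. PUS7, which makes pseudouridine in tRNA and mRNA, was at 0.75 and URB2, a ribosome biogenesis factor, at 0.73. PUS7 had a ratio of -0.24 in ATO and -0.99 in untreated cells, so it was total-rich in both states. The arachidonic acid epoxygenase gene CYP2J2 was at 0.73 and HNMT, which inactivates histamine by methylation, at 0.73. CYP2J2 differed with ATO by 0.72 in polysomal and -0.01 in total RNA.

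The largest lower change was that of KIF26B (gene 55083, chromosome 1), an atypical kinesin, at -1.02. KIF26B had 8.66 in ATO polysomal and 10.19 in ATO total RNA, against 9.36 in untreated polysomal and 9.87 in untreated total RNA. Its polysomal signal was lower and its total signal higher after ATO, and its ratio was -1.53 in ATO and -0.51 in untreated cells. METTL6 (change -0.86) and DTWD2 (-0.78) both encode enzymes that modify tRNA bases. METTL6 had 9.93 and 9.64 in ATO polysomal and total RNA, against 10.66 and 9.51 untreated. POP7, a protein subunit of ribonuclease P and MRP, had a change of -0.83 with 9.59 and 9.73 in the ATO fractions against 10.70 and 10.01 in the untreated ones. POP7 was lower in both fractions after ATO, at -1.11 in polysomal and -0.28 in total RNA (log2 ATO minus untreated).

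ANAPC1, the scaffold of the anaphase-promoting complex, was at -0.82, and the metalloprotease ADAM15 at -0.77. ALG14, of the second step of N-glycan assembly, and the histone gene H3C1 were both at -0.76. ORC1, a subunit of the origin recognition complex, and SLC39A8, an importer of zinc and manganese, were at -0.75. SLC39A8 had 9.91 and 9.92 in ATO polysomal and total RNA, against 10.85 and 10.11 in the untreated fractions, so that both fractions were lower with ATO, polysomal RNA (-0.94) more than total RNA (-0.19). NBPF1, also at -0.75, belongs to a multicopy family and is uncertain. SPR, the sepiapterin reductase of tetrahydrobiopterin synthesis, was at -0.74, STOX2 and CYSTM1 at -0.73 and RCAN3, a regulator of calcineurin, at -0.72. The members next to the threshold were HMMR at 0.59, PPM1G at 0.60, and H2BC12 and TMEM182 at -0.59, with KIF20A and CTDSP1 at 0.58 and HJURP and TNIP1 at -0.58 just outside it.

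**Figure D3:**
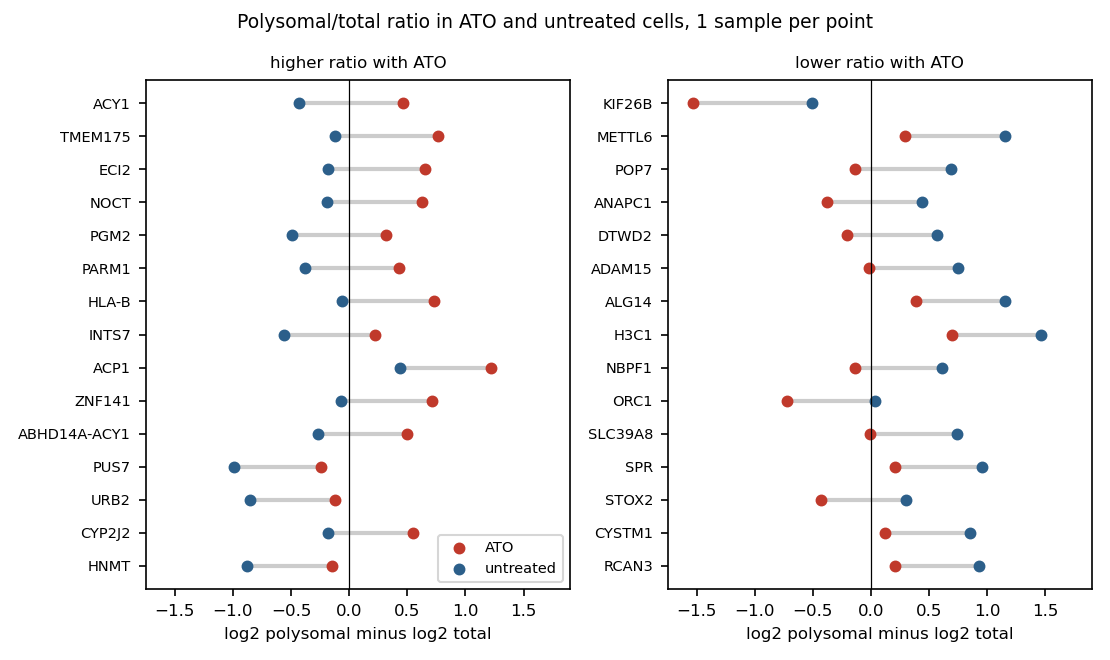
Log2 polysomal minus log2 total signal (horizontal axis) in ATO (red) and untreated cells (blue) for the 15 coding genes per direction with the largest change at or above the 75th percentile of level, 1 sample per fraction and state. Of the 30 genes, KIF26B has the longest bar, with -1.53 in ATO and -0.51 in untreated cells.

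The change can be split into its part in polysomal RNA and its part in total RNA, each ATO minus untreated. By construction it equals the polysomal part minus the total part. Over coding probe sets in general the polysomal part had the wider spread, 0.18 against 0.12 in total RNA at or above the 90th percentile. From the 75th to the 90th percentile the spreads were 0.21 and 0.18. For 42 of the 52 lower genes the polysomal part was the larger, with a median of -0.54 in polysomal and 0.13 in total RNA. The 46 higher genes were split more evenly, with the larger part in polysomal RNA for 27, in total RNA for 18 and equal parts for 1; the medians were 0.38 in polysomal and -0.31 in total RNA. In polysomal RNA taken alone, 19 of the 52 lower genes were past 1.5-fold below untreated cells, of 27 among all 3393 genes (0.796%). In total RNA taken alone, 4 of the 46 higher genes were past 1.5-fold lower with ATO, of 8 in all (0.236%). The genes were picked by their change, and how often the polysomal part was the larger over all genes was not counted. The shares are therefore given as their make-up only. Past 0.32 on the log2 scale, 10 of the 3393 genes (0.295%) differed in opposite directions in the 2 fractions, NOCT, PGM2 and ANAPC1 among them, and 3 (0.0884%) had ratios of opposite sign in the 2 states.

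The genes were chosen by the difference between their ratios in the 2 states, so the following counts describe that choice and nothing is read from them. Set against the series' own threshold for polysomal over total RNA, 18 of the 46 higher genes were past 1.5-fold polysome-rich in ATO cells and none in untreated cells. Among all 3393 coding genes 15.2% were past it in ATO and 16.8% in untreated cells. Of the 52 lower genes 3 were past it in ATO cells and 23 in untreated cells. On the total-rich side, 10 of the 52 were past 1.5-fold in ATO cells and none in untreated cells, beside 4.04% of all genes in ATO and 4.89% in untreated cells.

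Gene lists drawn from translation control, arsenic and metal stress, and the cell cycle had median changes near 0 over the members measured. The lists were only partly covered, with 25 of 88 cytosolic ribosomal protein genes, 19 of 42 NRF2 targets and 3 of 16 metal-response genes measured. Of 40 lists, 34 had at least 5 members past the level filter, and the members counted below are those past it. Their median changes ran from -0.19 to 0.21, with 18 above 0, 14 below and 2 at 0, beside a median of 0.00 over all coding genes. Of all coding genes past the filter 49.7% were above 0 and 48.5% below, the shares beside which list counts stand. Of 504 distinct list members 18 were past 1.5-fold (3.57%), beside 2.89% of all coding genes in either direction. Of the 18, 4 were histones and 3 mitosis genes, and each of the other 11 was the only such member of its list.

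Replication histones, the core and linker histones made in S phase, had 58 members measured and 39 past the level filter, of which 27 were below 0 and 12 above, with a median of -0.10. None passed 1.5-fold higher, and 4 passed lower, namely H3C1, H2BC9, H2BC14 and H2BC12. H3C1 had 9.26 in ATO polysomal and 8.56 in ATO total RNA, against 9.61 and 8.15 in untreated polysomal and total RNA. H2AC4, at 0.42, and the linker histone gene H1-4, at 0.35, were at the other end. The list's median ratio was 0.66 in ATO and 0.82 in untreated cells. Most of these mRNAs lack a poly(A) tail and end in a stem-loop.

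Cytosolic ribosomal proteins, the main TOP mRNAs, lay on the other side, with 18 of 24 members above 0, a median of 0.14 and none past 1.5-fold. RPL22L1 (0.35), RPL7 (0.30) and RPL10A (0.30) were highest and RPS14 (-0.32) lowest. RPL7 had 17.70 and 17.81 in ATO polysomal and total RNA, against 17.36 and 17.77 in the untreated fractions. The list's median ratio was -0.14 in ATO and -0.31 in untreated cells. The 80 ribosomal protein pseudogene probe sets, which can read the parent mRNA, did not lean the same way, with 40 above 0 and 39 below. Over 8 further TOP mRNAs the median was 0.06. The elongation factor genes EEF1D (0.27) and EEF1A1 (0.09), EIF3E (0.23) and EIF3H (0.08) of initiation factor eIF3, NPM1 (0.04) and PABPC4 (0.01) were above 0, while BTF3 (-0.09) and the nucleotide synthesis gene IMPDH2 (-0.48) were below.

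The 14 translation initiation factors were split 7 and 7 around a median of 0.05, and EIF2A, an initiator tRNA carrier, was past 1.5-fold at 0.65. The MNK-eIF4E axis, a list of the cap-binding protein, its partners and related regulators, had 8 members with a median of -0.08 and none past the threshold. EIF4G1, the scaffold of the cap complex, was at -0.38, EIF4E2 at -0.21, EIF4E itself at -0.20, SPRY4 at -0.13 and KHDRBS1 at -0.03. RICTOR was at 0.04, the repressor gene EIF4EBP1 at 0.28 and the kinase gene MTOR at 0.40. Among mRNAs known as sensitive to eIF4E, the antiapoptotic MCL1 was at 0.47 and the cell cycle genes CDK6 and CCND3 at -0.47 and -0.44, with a median of -0.01 over 8. Upstream open reading frame mRNAs, which can stay on ribosomes when initiation is impaired, had a median of -0.19 over 7, with HAX1 past the threshold at -0.63 and EPRS1 at 0.46.

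Targets of NRF2, the transcription factor of the oxidative stress response, had 11 of 15 members above 0 and a median of 0.05. The malic enzyme gene ME1, which makes NADPH, was past 1.5-fold at 0.69. ME1 had 11.96 in ATO polysomal and 11.54 in ATO total RNA, against 11.38 and 11.65 in the untreated fractions. The peroxiredoxin gene PRDX1 was at 0.40 and the autophagy receptor gene SQSTM1 at 0.29. GSTM4 (0.18), GSTA4 (0.17), GCLM (0.15), TKT (0.13), UGDH (0.05), SLC7A11 (0.04), GCLC (0.03) and GSTM3 (0.01) were closer to 0. GSR (-0.06), NFE2L2, the gene of NRF2 itself (-0.08), MGST3 (-0.16) and EPHX1 (-0.22) were below it.

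Zinc transporters had 8 of 11 members below 0 and a median of -0.07. Beside SLC39A8 the importers SLC39A4 (-0.53), SLC39A1 (-0.23) and SLC39A7 (-0.23) and the SLC30 members SLC30A9 (-0.31), SLC30A6 (-0.07), SLC30A1 (-0.06) and SLC30A5 (-0.04) were below. SLC30A7 (0.11), SLC39A14 (0.13) and SLC39A10 (0.30) were above. Of the 3 metal-response genes measured, the metal-sensing transcription factor gene MTF1 was at -0.52, the transferrin receptor gene TFRC at -0.11 and SLC30A1 at -0.06. Selenoproteins and their machinery had a median of -0.15 over 7 (0.10 under a level filter lowered to the 50th percentile, 0.06 without one), with GPX1, GPX3 and SECISBP2 at -0.31, SELENOF at -0.15, SELENON at 0.04, SELENOK at 0.34 and SELENOI at 0.54. The ribonuclease P and MRP list had a median of 0.21 over 5 (-0.06 with the filter set on the lowest sample). Its members, which are not all subunits of the same enzyme, did not run together. POP7 was at -0.83 and TRMT10C at -0.33, against RPP40 at 0.21, RPP14 at 0.24 and POP1 at 0.40.

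Heat shock genes had a median of -0.02 over 17, with the cochaperone gene DNAJB2 past the threshold at -0.70, DNAJB9 at 0.40 and HSPB1 at -0.27. Over 13 targets of ATF4, the transcription factor of the integrated stress response, the median was 0.00, with the serine, folate and asparagine genes MTHFD2 at -0.51 and ASNS at -0.38 and STC2 at 0.25. Endoplasmic reticulum chaperones had 15 of 21 members above 0 and a median of 0.11, with PDIA4 at 0.38 and ERO1B at -0.56. Mitosis genes held 2 members past the threshold upwards, TTK and HMMR, and 1 downwards, CENPF, around a median of 0.04 over 30. KIF15 and KIF20A, both mitotic kinesins, were just short of it at 0.58. Of 36 mitochondrial ribosomal proteins MRPL15 was at 0.72 and MRPL22 at -0.49, with a median of 0.05. In the MHC class I and interferon list HLA-B, HLA-E (0.50) and HLA-F (0.44) were highest, around a median of 0.00.

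**Figure D4:**
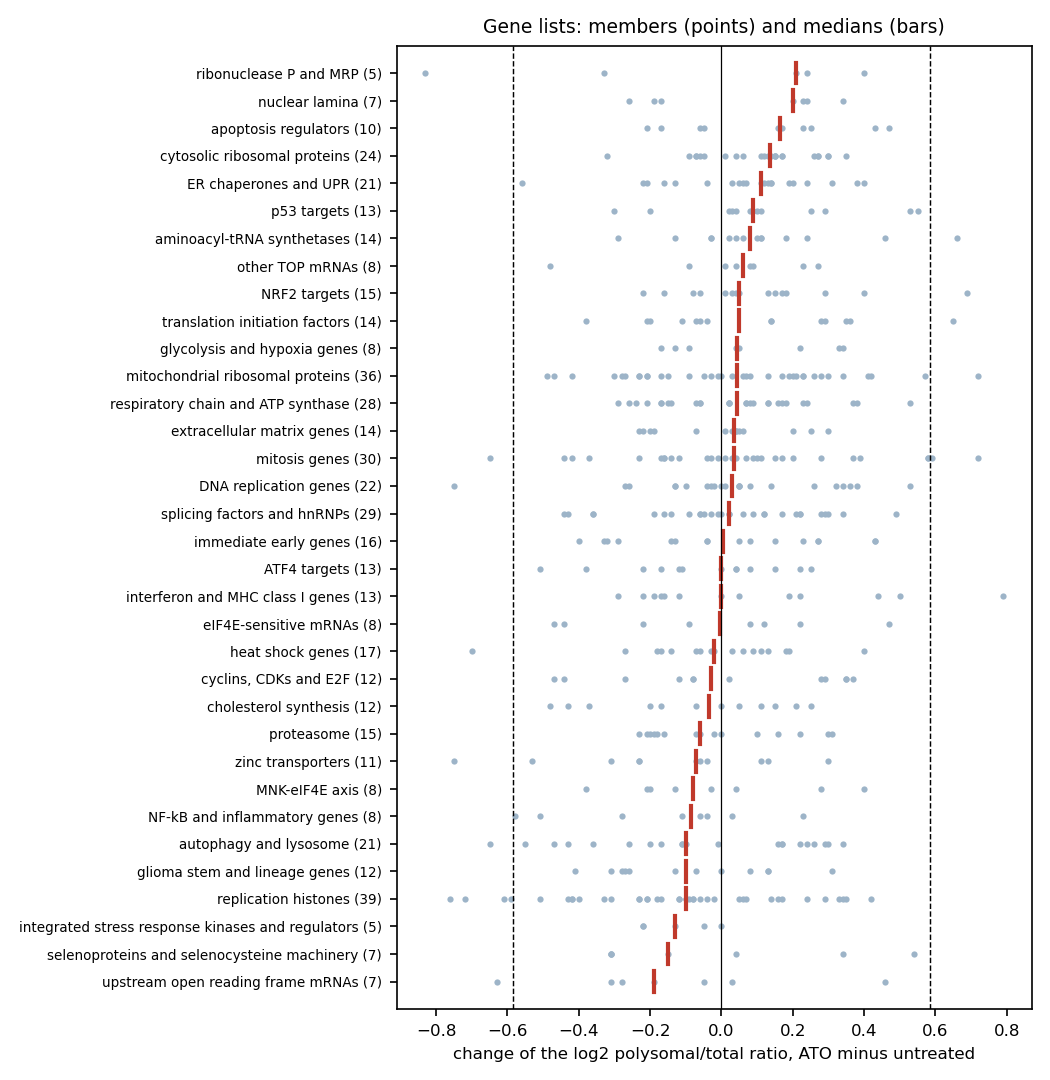
Change of the log2 polysomal/total ratio, ATO minus untreated (horizontal axis), for the 34 gene lists with at least 5 members past the level filter, number of members in brackets; points are genes, red bars list medians and dashed lines 1.5-fold. All medians lie between -0.19 and 0.21, and single members such as POP7 (-0.83) and HLA-B (0.79) lie far outside their lists' medians.

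Named noncoding or untyped probe sets, 631 past the filter, passed 1.5-fold more often than coding genes, with 35 higher (5.55%) and 26 lower (4.12%). Probe sets with no symbol at the same level had 4.3% higher and 2.82% lower. 5S ribosomal RNA, the small RNA of the large ribosomal subunit transcribed by RNA polymerase III, held much of the higher side. Its gene and pseudogene probe sets past the filter had 15 distinct sets of values, of which 12 were past 1.5-fold higher and none lower, with changes of 0.20 to 1.74 and a median of 0.76. The 5S copies are nearly alike in sequence, so these are repeated readings of similar RNA and not separate genes. With identical values counted once, 619 noncoding or untyped sets of values remained. Of them 30 were past 1.5-fold higher, 12 from 5S ribosomal RNA and 18 from other RNAs, and 25 were past it lower.

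The part in total RNA was the larger in 13 of the 15, and the part in polysomal RNA in 2, RNA5SP191 (0.78, against -0.52 in total RNA) and RNA5SP99 (0.42, against -0.31). All 15 were lower in total RNA after ATO, at -1.0 to -0.31 (log2 ATO minus untreated) with a median of -0.63. In polysomal RNA they ranged from -0.28 to 0.78, with a median of 0.12 and 9 of 15 above 0. RNA5SP202 had 17.61 in ATO polysomal and 16.20 in ATO total RNA, against 17.66 and 17.20 in the untreated fractions. RNA5S9 had 16.19 and 14.72 in the ATO fractions, against 16.38 and 15.66 in the untreated ones. RNA5SP85, with the largest change (1.74) of any named probe set past the filter, had 9.73 and 8.43 in the ATO fractions, against 8.96 and 9.40 untreated.

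Other RNAs that are not translated differed too, without a common direction. U6 small nuclear RNA copies had a median change of -0.27, with 20 of 23 below 0, 4 past 1.5-fold lower and 2 past it higher. The 2 higher copies were weak, RNU6-232P at level 9.68 and RNU6-637P at 9.09. U1 copies had a median of -0.12 over 19, with 4 past lower. Of the 4, RNVU1-19 (level 8.75) and RNVU1-1 (12.77) were total-rich in untreated cells, at -1.56 and -2.19. RNU1-105P (-0.10) and RNU1-74P (0.30) were far from the untreated U1 median of -2.51. The strongest U1 copy, RNU1-3 (level 17.03), had a change of -0.15. 7SK copies had a median of 0.37 over 10, 1 of them past higher, and RN7SK itself had 16.79 and 19.02 in ATO polysomal and total RNA, against 16.56 and 19.08 untreated (change 0.29). 7SL copies, from the signal recognition particle, were centred at -0.06 over 35. Changes of this size were thus also measured at probe sets named for RNAs that are not translated, some of them weak or unlike their class in ratio. The 80 ribosomal protein pseudogenes, centred at 0.01, are set apart from these, because their probe sets can read the translated parent mRNA.

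Beside 5S, the noncoding probe sets with the largest higher changes were the pseudogenes HNRNPA1P38 (1.29), RN7SL671P (1.20) and MTND6P22 (1.19). The lowest were SUMO2P6 (-1.0), the U1 variant RNVU1-19 (-0.97), MIR8485 (-0.93), the antisense transcript PTPRG-AS1 (-0.92) and BANF1P3 (-0.86). Pseudogene probe sets can read the parent mRNA. SUMO2P6, a copy of the gene of a small ubiquitin-like modifier, had 9.80 and 10.11 in ATO polysomal and total RNA, against 10.26 and 9.57 in the untreated fractions.

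**Figure D5:**
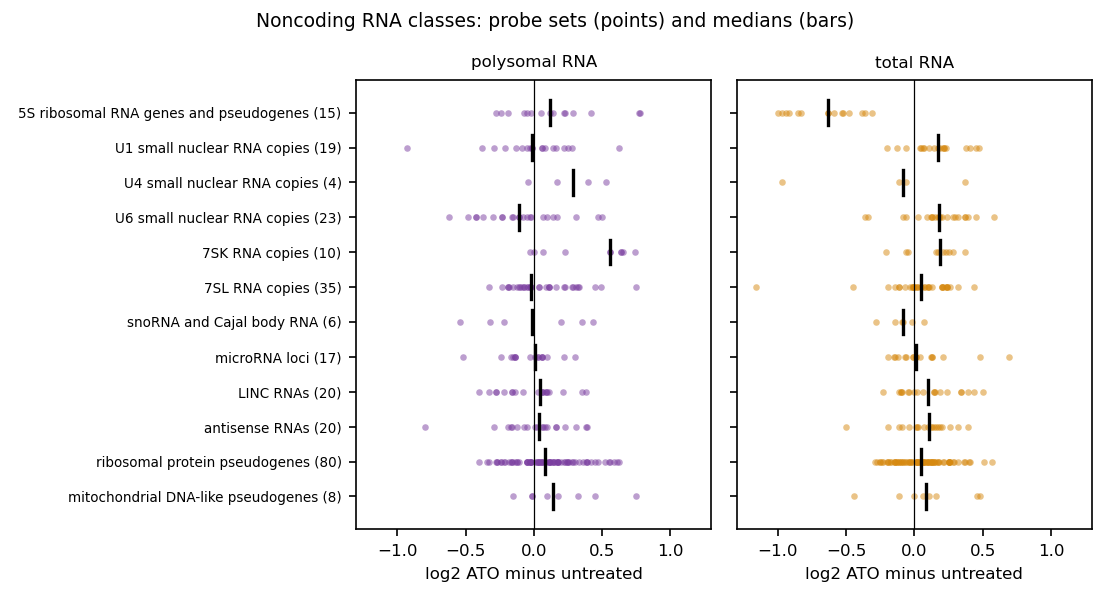
Log2 ATO minus untreated in polysomal RNA (left) and in total RNA (right) for noncoding RNA classes past the level filter, number of distinct probe sets in brackets; points are probe sets and black bars medians. All 15 points of 5S ribosomal RNA lie below 0 in total RNA, with a median of -0.63, and on both sides of 0 in polysomal RNA, with a median of 0.12.

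MicroRNA loci gave 17 distinct probe sets past the filter, which read the RNA of the locus and not the mature microRNA in particular. MIR8485 and MIR3135B were past 1.5-fold lower, and MIR3654 was the highest, at 0.45. The mature sequences of the lowest and highest of those matched are printed to identify the loci, with the seed, bases 2 to 8, in capitals (RefSeq, GRCh38.p14).
hsa-miR-3135b, chr6:32749952-32749973, minus strand, change -0.62: gGCUGGAGcgagugcaguggug
hsa-miR-3654, chr7:133034860-133034878, minus strand, change 0.45: gACUGGACaagcugaggaa

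MIR3135B had 10.51 in ATO polysomal and 10.62 in ATO total RNA, against 10.65 and 10.14 in the untreated fractions, so most of its change was a higher total signal with ATO. MIR3654 had 15.29 and 16.19 in the ATO fractions, against 14.99 and 16.34 in the untreated ones. The 2 seeds differ.

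At weaker signal, from the 50th to the 75th percentile of level, 4.86% of 1913 coding genes were past 1.5-fold higher and 7.16% lower. The largest higher changes were those of NKAIN2 (1.23), MYCT1 (1.15), ATP6V1G2 (1.11), EFCAB10 (1.11) and PRAMEF27 (1.09). The largest lower ones were those of LPL, the lipoprotein lipase gene (-1.31), ZFP69 (-1.26), DENND2C (-1.24), DUSP19 (-1.17) and ANKRD7 (-1.13). LPL had 6.44 in ATO polysomal and 7.53 in ATO total RNA, against 7.33 and 7.11 in the untreated fractions. With 1 sample per group, nothing in these data shows which of these would recur.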

How the data were processed

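Polysomal and total RNA of LN229 cells, given ATO or untreated, were measured on Affymetrix arrays, 1 sample per group. The log2 values, to 2 decimals, were deposited by the authors and used as given. The tool was Affymetrix Expression Console, per the submitters' processing notes. Its version, the build and the normalization were not given in the sources used here. Values ran from 2.16 to 19.56 and 406 probe sets exceeded 16, so the scale is not plain log2 intensity, and folds are folds on that scale only. Rounding can move a change by up to 0.02, and 44 named probe sets past the filter lay within 0.02 of the threshold.

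Probe sets lay on chromosomes 1 to 8, with 1722 of chromosome 9; other chromosomes were not analysed here. Names came from the platform annotation: 16127 probe sets had 1 symbol, 419 several and 48982 none. Coding genes were typed through the RefSeq table of GRCh38.p14 by Entrez identifier, and 3 probe sets with a different chromosome there were not counted as coding. RefSeq also gave the sequences.

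The ratio, its change and the level were computed, and changes past 1.5-fold, as in the series' design text, were counted, in Python 3.11.15 with pandas 2.3.3 and numpy 2.4.6. No test was possible with single samples. Members, lists and alternatives were chosen with earlier results of these data known. Named genes were the 15 largest changes per direction among coding genes past the filter, 10 at or above the 90th percentile, 5 noncoding, 5 from the 50th to the 75th percentile, up to 4 of a list and every member of 7 short lists, and those beside the threshold. The steps were tested on simulated data. Alternatives were centring, quantile normalization, an offset of 32, loess (span 0.3, statsmodels 0.14.6), other thresholds, level filters and probe set rules; counting identical values once and leaving out 5S ribosomal RNA were added after seeing the data.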

Additional observations from a re-analysis of the deposited data

Results flagged for a closer look

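For 10 of 3393 coding genes past the level filter (0.295%), the ATO minus untreated difference had opposite signs in polysomal and total RNA and was past 0.32 on the log2 scale in each. With 1 sample per group these differences between the fractions were not tested. In 7 genes polysomal RNA was higher and total RNA lower with ATO. NOCT differed by 0.38 in polysomal and -0.44 in total RNA (change of the ratio 0.82), PGM2 by 0.38 and -0.43 (0.81) and PARM1 by 0.43 and -0.38 (0.81). HNMT differed by 0.36 and -0.37 (0.73), and MRPL15, a mitochondrial ribosomal protein gene, by 0.38 and -0.34 (0.72). MUL1, a mitochondrial ubiquitin ligase gene, differed by 0.33 and -0.36 (0.69), and ACOX3, a peroxisomal acyl-CoA oxidase gene, by 0.34 and -0.34 (0.68). In 3 genes polysomal RNA was lower and total RNA higher, namely ANAPC1 at -0.49 and 0.33 (change -0.82), H3C1 at -0.35 and 0.41 (-0.76) and MDN1, of ribosome assembly, at -0.39 and 0.33 (-0.72).

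For 3 genes (0.0884%) the polysomal minus total ratio itself had opposite signs in the treatment states, past 0.32 in each, again untested. ACY1 was polysome-rich in ATO cells (0.46) and total-rich in untreated cells (-0.43), a change of 0.89. PARM1 ran the same way (0.43 in ATO and -0.38 in untreated cells, change 0.81). ANAPC1 ran the other way (-0.38 in ATO and 0.44 in untreated cells, change -0.82). None was past 1.5-fold in both states.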

How the results depend on the processing

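As reported, 81 named probe sets were past 1.5-fold higher and 79 lower. The counts were 455 higher and 417 lower past 0.32 on the log2 scale, 6 and 1 at 2-fold, and 22 and 6 at 3 local spreads. With the level filter at the 90th percentile they were 23 and 11, at the 50th 393 and 407, and without a filter 1119 and 985. Coding probe sets alone gave 46 higher and 53 lower. Each of these settings changes the threshold or the probe sets counted. The reported 81 and 79 were near even, with 44 named probe sets past the filter within 0.02 of the threshold. Which direction was the more numerous changed between settings. Under centring (69 and 95), quantile normalization (82 and 79), the offset (76 and 70), loess (81 and 80), a filter on the lowest sample (64 and 65), gene means (77 and 76), identical values counted once (76 and 78) and no 5S ribosomal RNA (64 and 79) the counts stayed within 1.5 times. Of the 160 probe sets 148 were shared under centring, 156 under quantile normalization, 146 with the offset and 160 with loess. The number of list medians above 0, 18 as reported, ranged from 15 to 21. Of 32 list medians other than 0, 9 turned sign under some alternative, and 23, replication histones and cytosolic ribosomal proteins among them, under none. Among the 23, mitochondrial ribosomal proteins, DNA replication genes and glioma stem and lineage genes reached 0.00 in an alternative. Those that turned were ribonuclease P and MRP (0.21 as reported, lowest -0.06), translation initiation factors (0.05, lowest -0.05), splicing factors (0.02, lowest -0.01) and immediate early genes (0.01, lowest -0.13), and, from below, selenoproteins (-0.15, highest 0.10), cholesterol synthesis (-0.04, highest 0.11), cyclins (-0.03, highest 0.02), heat shock genes (-0.02, highest 0.03) and eIF4E-sensitive mRNAs (-0.01, highest 0.22). No paired analysis was possible because each group has 1 sample.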

Other observations

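By chromosome, the share of coding genes past 1.5-fold ran from 1.87% on chromosome 5 to 4.8% on chromosome 4, with median changes between -0.02 and 0.02. Chromosome 1 held 7 higher and 18 lower genes of 767 (3.26% in either direction), and chromosome 2 held 11 higher and 6 lower of 526 (3.23%). Over all coding genes 1.36% were higher and 1.53% lower, 2.89% in either direction. A skew by chromosome was not tested, and nothing is read from these counts. Of the 9 coding genes with 2 probe sets past the level filter, 8 had changes of the same sign in both. SFPQ, a splicing and paraspeckle protein gene, had the widest gap, with -0.20 at its strong probe set (level 14.53) and -0.95 at its weak one (level 8.88). In 21 of the 3393 coding genes past the level filter both fractions differed by over 0.32 on the log2 scale in the same direction with ATO. In 10 they differed by as much in opposite directions, and neither count was tested.

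Apoptosis regulators had 6 of 10 members above 0 and 4 below, none past 1.5-fold, and a median change of 0.17 (0.09 with no filter). MCL1 was highest at 0.47, followed by the initiator caspase gene CASP8 at 0.43, and DFFA, the inhibitor of the apoptotic nuclease, was lowest at -0.21. Targets of p53 had 11 of 13 members above 0 and a median of 0.09, with the kinase gene PLK2 at 0.55, the oxidoreductase gene TP53I3 at 0.53 and ZMAT3 lowest at -0.30. The autophagy and lysosome list had a median of -0.10 over 21 genes, with the protease gene ATG4C past 1.5-fold at -0.65 and ATG7, of the same conjugation pathway, at -0.55. All 3 list medians kept their sign under the 9 alternatives run on lists.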
